A study of Mus musculus with 39 samples.

Results

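The RNAs described here are those of 39 complement and coagulation factors that hepatocytes make and secrete into plasma. They were chosen by name and function, with earlier results of these data known, and all 39 are among the 13230 genes that the tables of both gradients list. The samples were fractions of 10 to 50% sucrose gradients loaded with liver homogenate of wild-type FVB female mice, an inbred strain, with 1 mouse for each of 2 gradients and no treatment. The homogenate was made without detergent and cleared of nuclei by a slow spin, so vesicles and pieces of membrane entered the gradient with the RNA. Gradient 1 gave 17 libraries (fractions 4 to 19 and 21) and gradient 2 gave 22 (fractions 3 to 24), where low numbers are light and high numbers are dense, and 17 fractions were sequenced in both. Levels are TPM, a unit scaled to the same total in every library, which corrects for transcript length and gives the share of an RNA within its own fraction, not its amount in the gradient.

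Complement is a cascade of plasma proteases and opsonins that tags microbes and builds a pore in their membrane, and coagulation is a parallel cascade that ends in a fibrin clot. The liver is the main source of both. As secreted proteins, the factors are translated at the endoplasmic reticulum (ER), to which a hydrophobic signal peptide near the start of the new protein directs the ribosome and its RNA, and many are then glycosylated, cut or carboxylated before export.

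The beginnings of the coding sequences are shown because a signal peptide is usually encoded there. Every codon with T at the second position encodes a hydrophobic amino acid (phenylalanine, leucine, isoleucine, methionine or valine). The lines give codons 6 to 15 of the annotated coding sequence, 30 bases read 5′ to 3′ on the coding strand, from GENCODE transcripts of mouse release M21 (assembly GRCm38, which is mm10), and capitals mark a T at the second position of a codon. The first 8 are factors of several roles, with Plg shown for its 9 such codons of 10, C4bp is the factor with the smallest share of such codons, Pdia4 is an ER chaperone that is no member, and Psma1 is a cytosolic proteasome subunit.
C3: gggtcccagcTacTagTgcTacTgcTgcTg
Hc: aTacTttgtcTttTaaTttTccTggacaaa
Mbl2: tcctTccTtcTgcTgtgtgTggTgacagTg
C8g: gctgTgtTgtTctTcacccTgcTctTgaca
Fgb: cTgcTgcTgcTatTgtgtgTttTctcagTt
Plg: gTaaTccTtcTgtTtcTctTgcTtcTgaaa
Klkb1: cgagTgggttattTtgTttcctTgtTtgct
F11: caggTgtTatattTtaTctTttTtgcctca
C4bp: cagcagacccTgcTccccacaagagctgca
Pdia4: gcttggcTgtTggTccTgcTctTggcgcTg
Psma1: tatgacaatgatgTcactgTttggagccct

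Over codons 2 to 25, a median of 41.7% of the codons of the 39 factors had T at the second position, from 12.5% in C4bp to 58.3% in Proz, against a median of 25.0% over the 10502 of 11308 expressed genes that could be matched to an annotated coding sequence. Of those genes, 10.8% were at or above the median of the factors. ER chaperones had a median of 39.6% and core proteasome subunits one of 25.0%. Among the factors this share had next to no relation to the center of sedimentation, the mean fraction number weighted by TPM, with a Spearman's rho of 0.076 in gradient 1 and −0.113 in gradient 2 over 39 genes that share the same libraries. Mbl2 and C8g, whose change from the top to the dense part of the gradient did not pass the test described further on, had 7 such codons of the 10 shown, as C3 and Hc did. Over codons 2 to 25 their shares were 50.0% and 37.5%, beside 45.8% for C3 and 41.7% for Hc. Whether these codons bear on the profiles was not tested.

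All 39 RNAs came from a liver preparation whose hepatocyte markers were abundant. The 10 hepatocyte markers (Alb, Ttr, Cps1 and others) summed to between 39921 and 64864 TPM in the light and 19068 to 21353 TPM in the dense fractions of gradient 1, and to 34025 to 47898 and 29941 to 40849 TPM in gradient 2, where the zones overlap. Markers of other liver cells also varied along the gradient. The 10 Kupffer cell markers, all detected, summed to 174 to 211 TPM in the light fractions of gradient 1 and to 64.6 to 72.5 TPM in the dense ones, and to 156 to 218 and 82.3 to 92.2 TPM in gradient 2. The 10 sinusoidal endothelial markers and the stellate markers (9 of 10 listed) were also higher in the light fractions, at no more than 156 and 98.9 TPM in sum. The erythroid markers (3 of 5 listed) summed to 258 to 496 TPM in the light and 66.4 to 106 TPM in the dense fractions of both gradients, and the cholangiocyte markers (4 of 5 listed) to 3.09 to 8.86 and 4.85 to 9.43 TPM. The 39 factors summed to 8213 to 10835 TPM in the light and 2099 to 2377 TPM in the dense fractions of gradient 1, and to 7460 to 10460 and 3743 to 5139 TPM in gradient 2. The part of other cells in the profiles was not tested.

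The 39 RNAs were most enriched near the top of the gradient. In gradient 1 they took 1.05% of all TPM in fraction 5 and 1.08% in fraction 6, and in gradient 2 they took 1.05% in fraction 5. Their share then fell to 0.209% in fraction 14 of gradient 1 and to 0.324% in fraction 13 of gradient 2. From there the gradients parted, since the share stayed near its low point in gradient 1 (0.213% in fraction 21) and rose again in gradient 2 to 0.674% in fraction 24. Dividing each TPM by the mean of that gene in the gradient gives a relative level that is comparable between RNAs. The median relative level of the factors was 2.16 in fraction 5 of gradient 1, against 1.07 for all genes, and 1.68 against 1.15 in gradient 2.

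**Figure D1:**
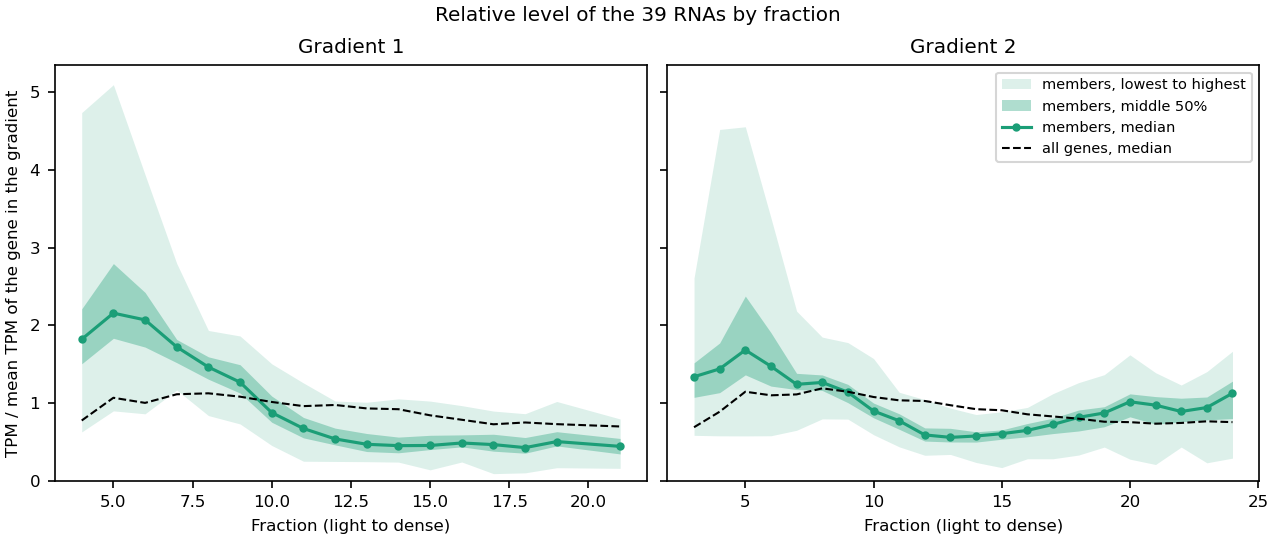
Relative level (TPM divided by the gene's mean in its gradient, y axis) by fraction (x axis) for the 39 factors in gradient 1 (left) and gradient 2 (right). The line is their median, the dark band the middle 50%, the light band the lowest to the highest, and the dashed line the median of all 11308 expressed genes. The median of the factors is highest in fraction 5 of both gradients, at 2.16 and 1.68, and rises again toward fraction 24 in gradient 2, to 1.13.

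The fraction with the highest TPM was fraction 5 or 6 for 27 factors in gradient 1 and for 22 in gradient 2. Over all 11308 expressed genes the median of this fraction was 9 in both gradients, with a lower quartile of 5 and an upper quartile of 15. Fractions 3 and 4 held the highest value of 6 and 7 factors. The exceptions fell into a few named sets. In gradient 1, Mbl1, Mbl2, Masp2, C8g, F11 and F13b were highest in fraction 8 or 9. In gradient 2, Mbl1, Masp2, Proc and F13b were highest in fraction 8, Mbl2, C8g and C4bp in fraction 20, and Vtn, F12 and Kng1 in fraction 24, the bottom of the tube. The 6 RNAs that were highest in fraction 8 or 9 of gradient 1 were of unlike coding length. C8g (609 bases), Mbl1 (720) and Mbl2 (735) were the shortest of the 39, while F11 (1875), F13b (2010) and Masp2 (2058) were above the median of the other 33 (1812). Across the 39 factors the relation of length to the center of sedimentation was weak (Spearman's rho −0.222 and −0.327 for coding length, −0.303 and −0.388 for transcript length). Over all matched genes rho was of the other sign for coding length (0.127 and 0.119) and of the same sign for transcript length (−0.136 and −0.173).

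**Figure D2:**
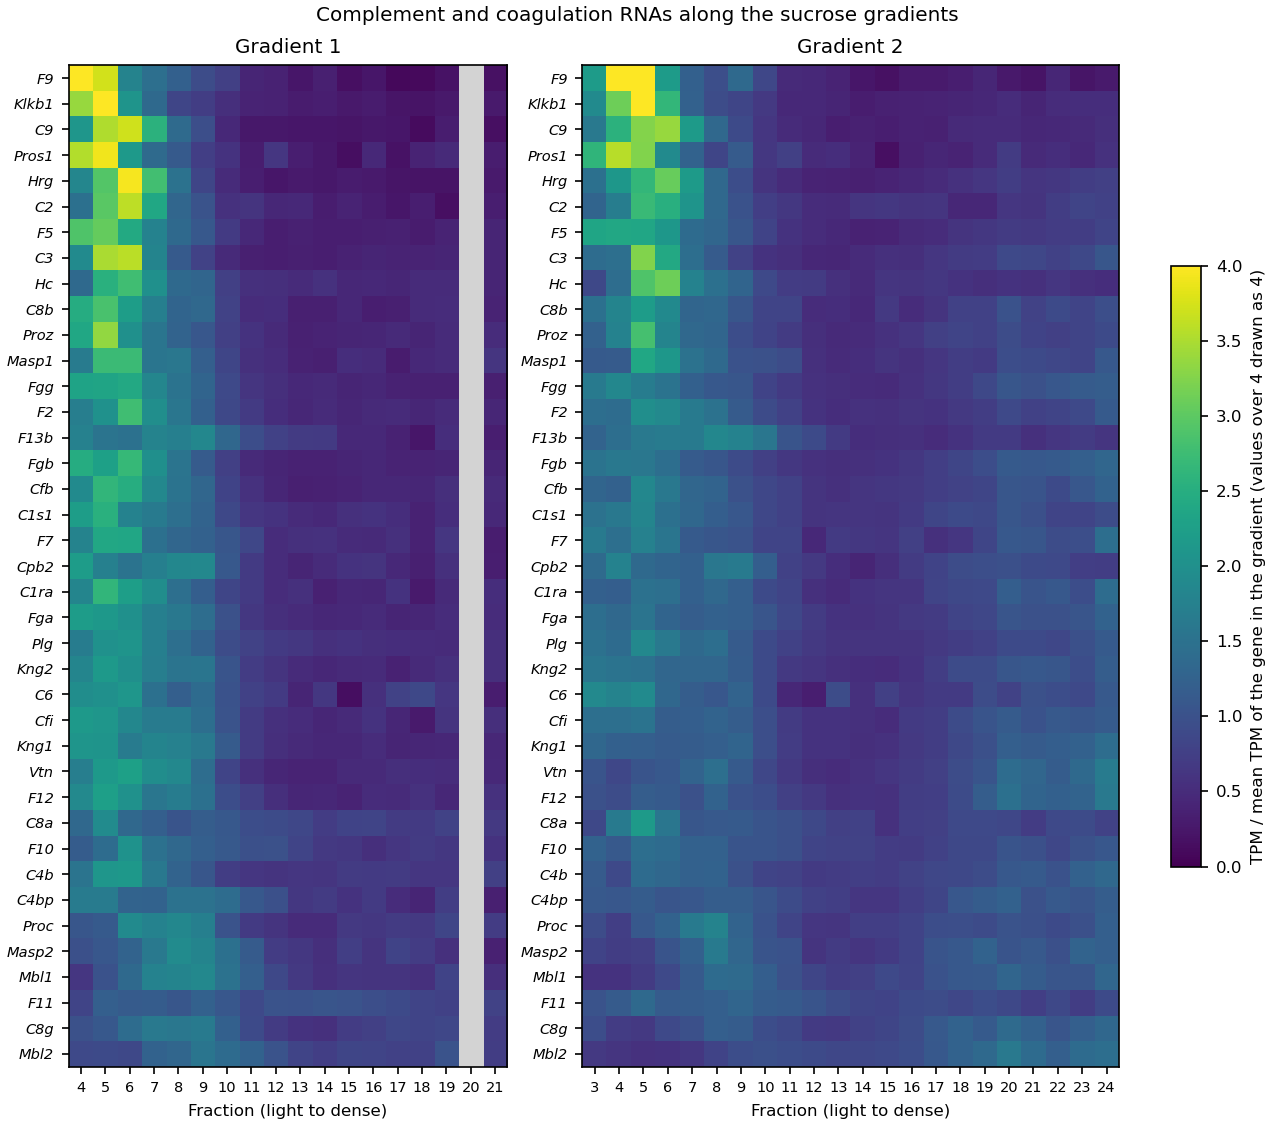
Relative level (color; values over 4 are drawn as 4) of each of the 39 factors (rows, ordered by mean center of sedimentation) in every fraction (columns) of gradient 1 (left) and gradient 2 (right). Grey marks fraction 20 of gradient 1, which has no library here. F9, at the top, is highest in fraction 4 of both gradients, and Mbl2, at the bottom, is highest in fraction 9 of gradient 1 and in fraction 20 of gradient 2.

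To test the difference along the gradient, fractions were averaged within a light zone (4 to 7), a middle zone (10 to 13) and a dense zone (16 to 19) of each gradient on the log2(TPM + 1) scale, and the 6 means per gene were compared with limma over 11754 genes, with Benjamini-Hochberg adjustment and a threshold of 0.05. The gradients are the replicates (n = 2). In the dense zone 27 of the 39 RNAs (69.2%) were lower than in the light zone and 0 were higher. Over all genes tested, 39.6% were lower and 22.3% higher. The median change of the factors was −1.46 on the log2 scale, and that of all genes was −0.43 (−0.52 to −0.05 over the alternatives). Without the dense zone of gradient 1 the median of the factors was −0.97, and without that of gradient 2 it was −2.03. The zones of a gradient come from 1 homogenate, and a fit with the gradient as a block called 35 of 39 lower (89.7%) and 0 higher, against 50% and 30.5% of all genes. Without the block, the median of the factors was −1.47 when the light zone of gradient 1 was left out (all genes −0.34). It was −1.39 without that of gradient 2 (all genes −0.49). Changes on this scale are shares within a fraction, and they understate those of low RNAs.

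**Figure D3:**
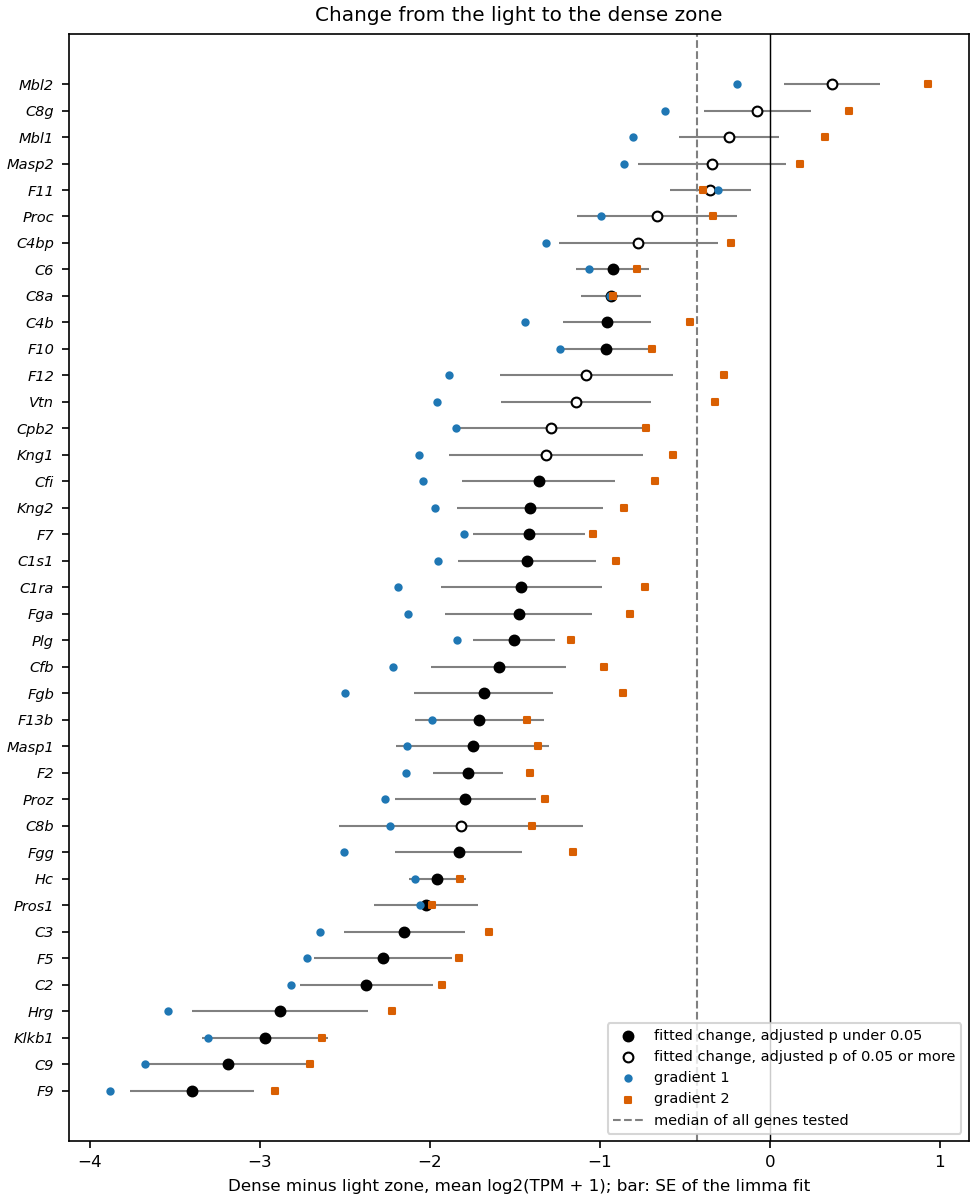
Dense zone minus light zone on the log2(TPM + 1) scale (x axis) for each of the 39 factors (rows). Black-edged circles are the limma estimates (filled where the adjusted p is under 0.05) with bars of 1 SE, blue and orange points are gradients 1 and 2, the solid line is 0 and the dashed line the median of all genes, −0.43. F9 has the largest fall (−3.40), Mbl2 alone lies above 0 (0.37, but −0.085 with quantile normalization), and in most rows gradient 2 lies to the right of gradient 1.

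The central component C3, from which both the opsonin and the later steps arise, was the most abundant of the 39 RNAs, with a mean of 737.5 TPM in gradient 1 and 875.6 TPM in gradient 2. Its light fractions lay between 1333 and 2640 TPM (median 1993) in gradient 1 and between 1265 and 2842 TPM (median 1694) in gradient 2. Its dense fractions lay between 297 and 307 TPM (median 301) and between 472 and 627 TPM (median 579). No dense fraction reached the lowest light fraction in either gradient. C3 RNA fell by 2.15 on the log2 scale (SE 0.36, adjusted p = 0.00352, limma), and its middle zone was lower than the mean of the light and dense zones (−1.31, SE 0.31, adjusted p = 0.0408). C3 lies at chr17:57203970-57228136 on the minus strand of GRCm38. Cfb, the protease of the alternative pathway that acts with C3b, fell by 1.59 (SE 0.40, adjusted p = 0.0155). Cfb and its neighbor C2 share an annotated readthrough gene on the same strand, so their reads may be split in part.

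The classical and lectin pathways start from proteins that bind antibodies or sugars and activate proteases. The proteases C1ra and C1s1 of the classical pathway, which work as a pair, had nearly the same profile (R = 0.967 in gradient 1 and 0.926 in gradient 2, across 17 fractions) and fell by 1.46 and 1.43 from the light to the dense zone (adjusted p = 0.0377 and 0.0249, limma). C2, the protease that C1s cuts, fell by 2.37 (SE 0.39, adjusted p = 0.00338), and C4b, which carries C2 on the target surface, by 0.96 (SE 0.26, adjusted p = 0.0206). C4a, a close paralog of C4b that is no member, had 4.00 and 4.21 TPM, was highest in fractions 10 and 11, and was higher in the middle than in the light zone (0.74, SE 0.22, adjusted p = 0.0359), where C4b was lower (−1.07, SE 0.26, adjusted p = 0.0188). How reads common to the paralogs were divided is not known from the values, and the same holds for C1ra, C1s1, Kng1 and Kng2.

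Mbl1 and Mbl2 encode the mannose-binding lectins and Masp1 and Masp2 the proteases that they carry. Mbl2 RNA was at 288 to 423 TPM (median 299) in the light fractions of gradient 1 and at 258 to 341 TPM (median 268) in the dense ones, ranges that overlap. In gradient 2 it was at 234 to 264 TPM (median 243) in the light and 383 to 553 TPM (median 478) in the dense fractions, which do not overlap and run in the other direction. Its change was 0.37 (SE 0.28, adjusted p = 0.294), from −0.20 in gradient 1 and 0.93 in gradient 2, and was −0.085 with quantile normalization. Mbl2 had the lowest correlation of the 39 RNAs between the gradients (R = −0.151). Mbl1 RNA was at 81.7 to 230.4 TPM (median 154) in the light and 71.5 to 105 TPM (median 78.2) in the dense fractions of gradient 1, and at 84.4 to 165 TPM (median 115) and 119 to 164 TPM (median 153) in gradient 2, with overlap in both. The profiles of Mbl1 and Masp2 resembled each other (R = 0.948 and 0.885), with changes of −0.24 (adjusted p = 0.499) and −0.34 (adjusted p = 0.523). Masp1, by contrast, fell by 1.75 (SE 0.45, adjusted p = 0.0173), and its R with Masp2 was 0.542 and 0.235. Genes on the other strand overlap some members, such as Tardbp with Masp2 and Fbxw5 with C8g. The library kit was stranded, but whether the pseudo-alignment used the strand is not stated in the sources used here.

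The terminal pathway assembles the membrane attack complex from C5, C6, C7, C8 and C9. C9, whose protein forms the wall of the pore, had the largest fall after F9, with 208 to 367 TPM (median 302) in the light and 11.3 to 31.0 TPM (median 24.7) in the dense fractions of gradient 1, and 267 to 413 TPM (median 357) and 44.8 to 60.0 TPM (median 52.1) in gradient 2. The zones were far apart in both gradients, and C9 RNA fell by 3.19 (SE 0.48, adjusted p = 0.00251). C6 was the least abundant of the 39 RNAs, with means of 2.71 and 2.45 TPM, and fell by 0.92 (SE 0.22, adjusted p = 0.0122). C8 is built from 3 subunits that separate genes encode. C8a and C8b, which are neighbors in the genome and have the same fold, had similar profiles (R = 0.934 and 0.940), but C8g, which encodes a small lipocalin-like subunit, did not follow C8a (R = 0.561 and −0.321). C8a fell by 0.93 (SE 0.18, adjusted p = 0.00568), and C8b had a change of −1.82 with a wide error (SE 0.72, adjusted p = 0.0693; 0.000826 with the block). C8g was at 181 to 292 TPM (median 228) in the light and 139 to 154 TPM (median 151) in the dense fractions of gradient 1. It had a change of −0.07 (SE 0.31, adjusted p = 0.852) and, in gradient 2, 228 to 309 TPM (median 276) in the dense fractions and 259 to 338 TPM (median 302) in fractions 20 to 24 against 163 to 241 TPM (median 194) in the light fractions.

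Hc encodes complement C5, and FVB is one of the inbred strains known for a loss-of-function allele of it; the allele was not read from these data. Hc RNA was present in every fraction, with means of 32.0 and 27.0 TPM. Its light fractions were at 43.6 to 88.8 TPM (median 72.9) in gradient 1 and 38.4 to 84.1 TPM (median 62.9) in gradient 2, and its dense fractions at 13.7 to 16.0 TPM (median 15.3) and 14.5 to 17.4 TPM (median 16.0). The profile was nearly the same in both gradients (R = 0.99) and close to that of C3, its paralog in sequence and fold (R = 0.963 and 0.941). It fell by 1.96 (SE 0.17, adjusted p = 0.000464). Unlike C3, which had 672 to 944 TPM in fractions 20 to 24 of gradient 2 and a mean there that was 1.76 times that of the middle zone, Hc had 14.1 to 17.2 TPM and a ratio of 0.803. The gene lies at chr2:34983331-35061438 on the minus strand.

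Of the 3 complement regulators, Cfi, the protease that cuts C3b and C4b, fell by 1.36 (SE 0.45, adjusted p = 0.0407). Vtn, which encodes vitronectin, an inhibitor of the terminal complex and an adhesion protein, differed most between the gradients in its center of sedimentation. Its RNA was at 391 to 517 TPM (median 467) in the light and 110 to 123 TPM (median 118) in the dense fractions of gradient 1, and at 265 to 399 TPM (median 334) and 216 to 326 TPM (median 262) in gradient 2. The zones were apart in gradient 1 and overlapped in gradient 2, and the change was −1.14 (SE 0.44, adjusted p = 0.0657; 0.0389 with the block). C4bp, an inhibitor of the classical convertase and the RNA with the fewest T at second codon positions, had a change of −0.77 (SE 0.46, adjusted p = 0.193; 0.0454 with the block).

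The 7 vitamin K-dependent factors are carboxylated on glutamates in the ER before export, and 6 of them fell (7 with the block), where 39.6% of all genes tested were lower (50% with the block). F9, the factor absent in hemophilia B, had the lightest profile of all 39 RNAs, with a center of sedimentation of 7.24 ± 0.36 (SD, n = 2). It reached 47.4 to 154 TPM (median 89.9) in the light and 3.01 to 7.89 TPM (median 4.89) in the dense fractions of gradient 1, and 41.3 to 152 TPM (median 106) and 9.54 to 14.6 TPM (median 10.3) in gradient 2. F9 fell by 3.40 (SE 0.36, adjusted p = 0.000807). With F13b, it was also lower in the dense than in the middle zone with the block (F9: −0.98, adjusted p = 0.0213; F13b: −0.97, adjusted p = 0.0052). Pros1, the anticoagulant protein S, was low in TPM (3.14 and 4.58) and fell by 2.02 (SE 0.31, adjusted p = 0.00253). F2, prothrombin, was the most abundant of the group, at 200.3 and 188.0 TPM on average. It was at 342 to 555 TPM (median 400.2) in the light and 85.6 to 98.8 TPM (median 96.5) in the dense fractions of gradient 1, and at 265 to 372 TPM (median 331) and 111 to 137 TPM (median 118) in gradient 2. The zones were apart in both gradients, and F2 fell by 1.77 (SE 0.21, adjusted p = 0.00105).

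Of the other members of this group, F7, F10 and Proz are neighbors on chromosome 8 and fell by 1.42, 0.96 and 1.79 (adjusted p = 0.0119, 0.0191 and 0.0118, limma). Proc, the anticoagulant protease protein C, had a change of −0.66 (SE 0.47, adjusted p = 0.261; 0.0172 with the block).

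The contact system starts coagulation on surfaces and releases bradykinin from kininogen. Klkb1 (plasma prekallikrein) and F11 (factor XI) are products of a gene duplication and lie next to each other on the minus strand of chromosome 8, at positions 45266689-45294859 and 45241174-45262031, yet their RNAs had unlike profiles. Klkb1 was at 63.1 to 236 TPM (median 126) in the light and 9.96 to 13.9 TPM (median 11.2) in the dense fractions of gradient 1, and at 71.0 to 260 TPM (median 165) and 21.6 to 25.6 TPM (median 23.1) in gradient 2. F11 was at 24.5 to 36.5 TPM (median 34.7) and 23.3 to 29.1 TPM (median 25.7) in gradient 1, and at 41.0 to 49.0 TPM (median 41.6) and 30.8 to 33.9 TPM (median 32.9) in gradient 2. Klkb1 thus dropped steeply in both gradients. F11 was nearly level in gradient 1, where its zones overlapped, and was lower in the dense zone of gradient 2, where they did not. The changes were −2.97 (SE 0.37, adjusted p = 0.00128) and −0.35 (SE 0.24, adjusted p = 0.240; 0.0182 with the block), and the R between the pair was 0.336 and 0.637. Of the 10 codons shown above for each, 5 of Klkb1 and 6 of F11 had T at the second position.

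F12, the protease that starts the contact pathway, and the kininogens Kng1 and Kng2, the source of bradykinin, had changes of −1.08, −1.32 and −1.41, of which that of Kng2 passed (adjusted p = 0.114, 0.0905 and 0.0305, limma; 0.0421, 0.0166 and 0.00483 with the block). Kng1 was at 260 to 323 TPM (median 300.4) in the light and 65.4 to 78.0 TPM (median 67.9) in the dense fractions of gradient 1, and at 321 to 344 TPM (median 330.0) and 186 to 273 TPM (median 222) in gradient 2. The zones were apart in both gradients, by less in gradient 2, where its level in fractions 20 to 24 was 1.05 times that of the light zone.

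All 5 RNAs of fibrin and its partners were lower in the dense than in the light zone, also with the block, beside 39.6% of all genes lower (50% with the block). Fga, Fgb and Fgg encode the chains of fibrinogen, which join in equal numbers in the ER. Their mean TPM were 253.9, 466.7 and 321.9 in gradient 1 and 350.5, 516.4 and 388 in gradient 2, and their profiles were close (Fgb with Fgg, R = 0.993 and 0.981; Fga with Fgb, R = 0.978 and 0.904). Fgb was at 929 to 1253 TPM (median 1110) in the light and 184 to 207 TPM (median 189.6) in the dense fractions of gradient 1, and at 595 to 827 TPM (median 782) and 335 to 492 TPM (median 406) in gradient 2. The falls were 1.48, 1.68 and 1.83 for Fga, Fgb and Fgg (adjusted p = 0.0271, 0.0141 and 0.00755, limma). F5, the cofactor of the protease that makes thrombin and the factor with the longest coding sequence (6552 bases), fell by 2.27 (SE 0.41, adjusted p = 0.00459). F13b, the carrier subunit of the enzyme that crosslinks fibrin, fell by 1.71 (SE 0.38, adjusted p = 0.0103) although its RNA was highest in fraction 9 of gradient 1 and fraction 8 of gradient 2.

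In fibrinolysis, Plg, the precursor of the clot-dissolving protease plasmin, fell by 1.50 (SE 0.24, adjusted p = 0.00304). Hrg, a histidine-rich plasma protein that binds plasminogen and heparin, had 424 to 912 TPM (median 663) in the light and 47.4 to 68.0 TPM (median 51.9) in the dense fractions of gradient 1, and 618 to 896 TPM (median 705) and 128 to 183 TPM (median 156) in gradient 2, and fell by 2.88 (SE 0.52, adjusted p = 0.00475). Cpb2, which trims fibrin so that plasmin binds less, had a change of −1.29 (SE 0.54, adjusted p = 0.0834; 0.00673 with the block).

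**Figure D4:**
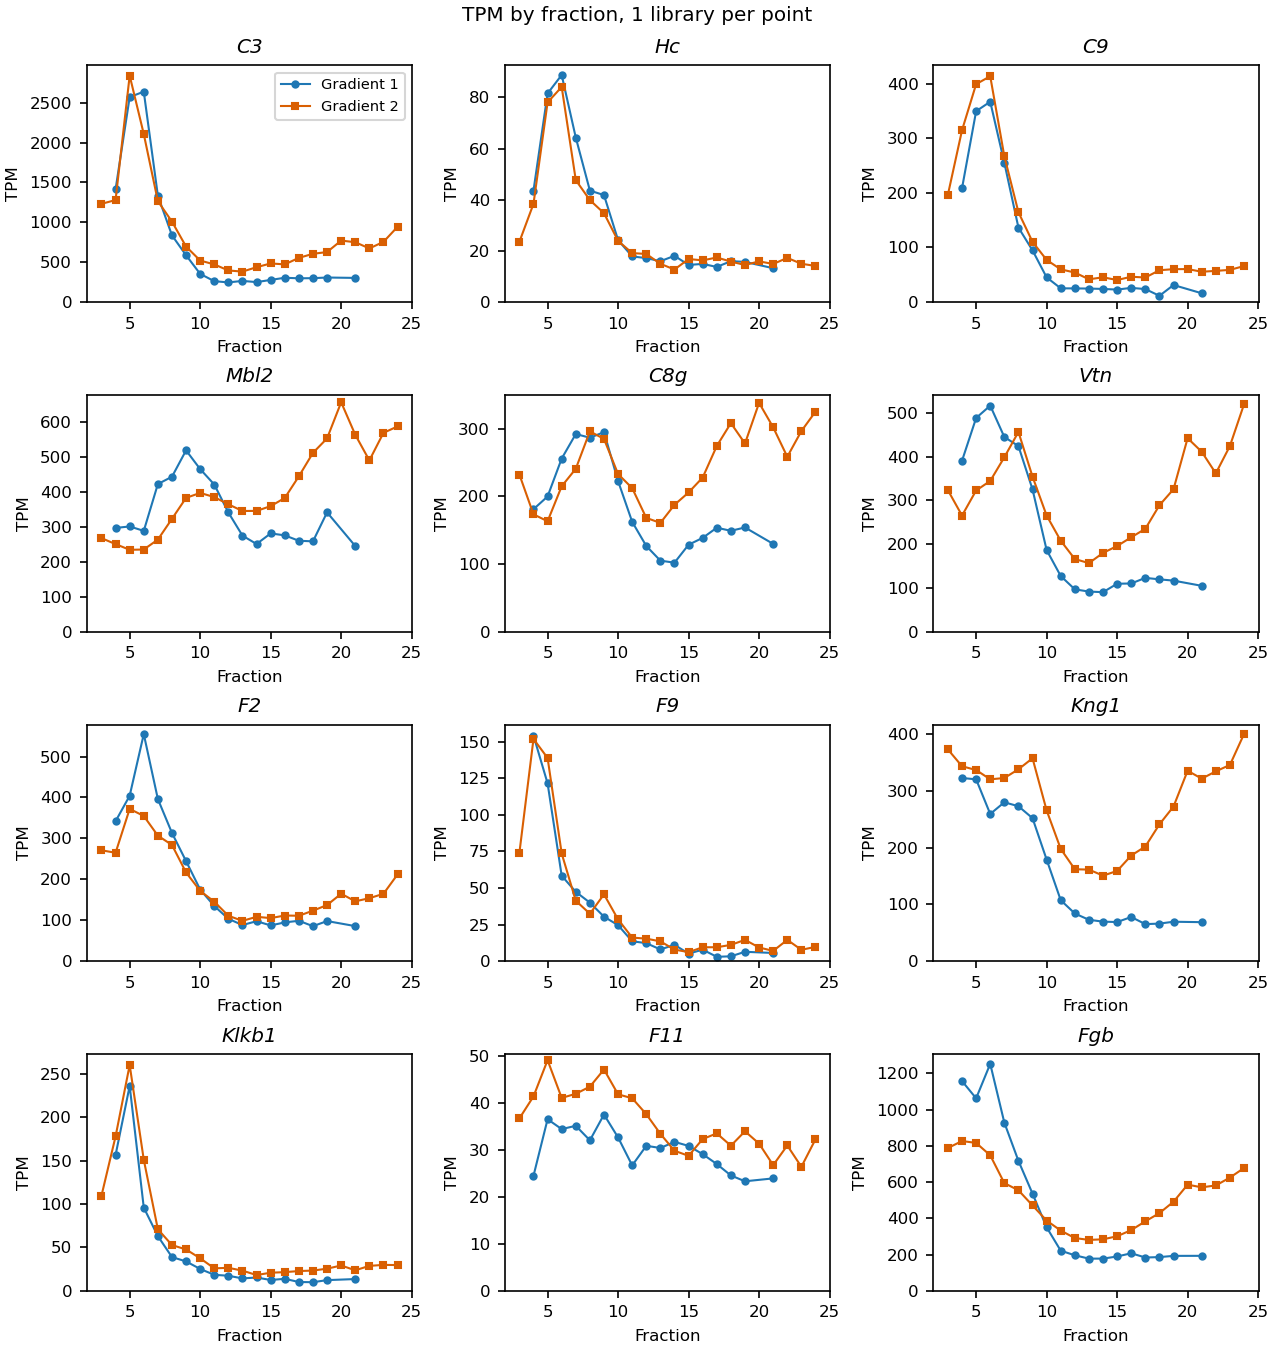
TPM (y axis, from 0, own scale per panel) by fraction (x axis) for 12 factors, with 1 library per point, gradient 1 in blue circles and gradient 2 in orange squares. C3, Hc, C9, F9 and Klkb1 peak in fractions 4 to 6 of both gradients, and F11 is nearly level in gradient 1. Mbl2, C8g, Vtn, Kng1 and Fgb rise toward the bottom of gradient 2, Mbl2 to 657 TPM in fraction 20. C3 and F2 also rise there from their low points, to 944 and 212 TPM in fraction 24.

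Most of the drop was present by the middle zone. From the light to the middle zone 21 of 39 RNAs (53.8%) were lower and 0 higher, against 24.1% and 23.5% of all genes, with a median change of −1.25 for the factors and 0.05 for all genes, the latter of either sign over the alternatives (−0.12 to 0.30; limma, Benjamini-Hochberg). With the gradient as a block, 32 were lower and 0 higher, against 35% and 37.2%. Without the block the count fell to 7, 8 and 9 without the light zone of gradient 1, the light zone of gradient 2 and the middle zone of gradient 1. Mbl1 (0.04, adjusted p = 0.924) and Mbl2 (0.39, adjusted p = 0.290) were the members with estimates above 0.

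From the middle to the dense zone limma called 0 of 39 RNAs in either direction, with 2 (F9 and F13b) at an unadjusted p under 0.05. With the block the same 2 were called lower. Over all genes 22.5% were lower and 4.79% higher (39.3% and 14.1% with the block), with a median change of −0.28. The median of the factors, −0.18, had no stable direction, as it was 0.34 without the dense zone of gradient 1, 0.13 without the middle zone of gradient 2, 0.12 with quantile normalization (all genes 0.05), and −0.70 without the dense zone of gradient 2. By relative level the dense zone was above the middle zone for 3 of 39 factors in gradient 1 and for 22 in gradient 2, against 33.3% and 35.6% of all genes. Against the mean of both outer zones the middle zone was lower for 2 factors, C3 and Hc (−0.72, SE 0.14, adjusted p = 0.0263), and higher for 0, where 3.61% of all genes were lower and 13.5% higher. With the block 15 factors (38.5%) were lower, against 16.1% of all genes. The median change of the factors in this contrast was −0.59 (all genes 0.15). It was −0.87 without the dense zone of gradient 1 and −0.34 without that of gradient 2 (all genes 0.22 and 0.09).

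The gradients differed in their dense part. The center of sedimentation over the 17 shared fractions had a median of 9.16 for the factors in gradient 1 and 10.74 in gradient 2, where the medians of all genes were 11.33 and 11.32. The median of the factors relative to all genes, −2.18 and −0.58, depended on the scale and the range, as it was −0.49 and −0.03 on log2(TPM + 1) profiles, −2.62 and −0.96 when genes averaging under 10 TPM were left out, and −0.20 over all 22 fractions of gradient 2. The center was denser in gradient 2 for 37 of 39 factors, by a median of 1.42 fractions, and for 41.9% of all 11308 genes, with a median shift of −0.096. The exceptions were F11 (11.60 and 11.32) and C8a (10.69 and 10.56). Hc moved little (9.08 and 9.33), Vtn most (9.18 and 11.75). All 10 ER chaperones and all 9 other plasma protein RNAs were denser in gradient 2 too, by medians of 1.56 and 2.32 fractions, and 0 of 14 core proteasome RNAs were. In fractions 20 to 24 of gradient 2, which gradient 1 has only at fraction 21, 32 factors had a higher mean TPM than in the middle zone (median ratio 1.34), against 33.3% of all genes (median ratio 0.694). The ratio was highest for Vtn (2.17), F12 (1.89) and Fgb (1.88) and lowest for F9 (0.528), F13b (0.605) and F11 (0.768). Fraction 21 was sequenced in both gradients, and the median ratio of the factors there to their middle zone was 0.721 in gradient 1 and 1.26 in gradient 2, with C3 at 1.08 and 1.70, where the medians of all genes were 0.726 and 0.674. With 1 mouse per gradient, the animal and the gradient run cannot be told apart.

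**Figure D5:**
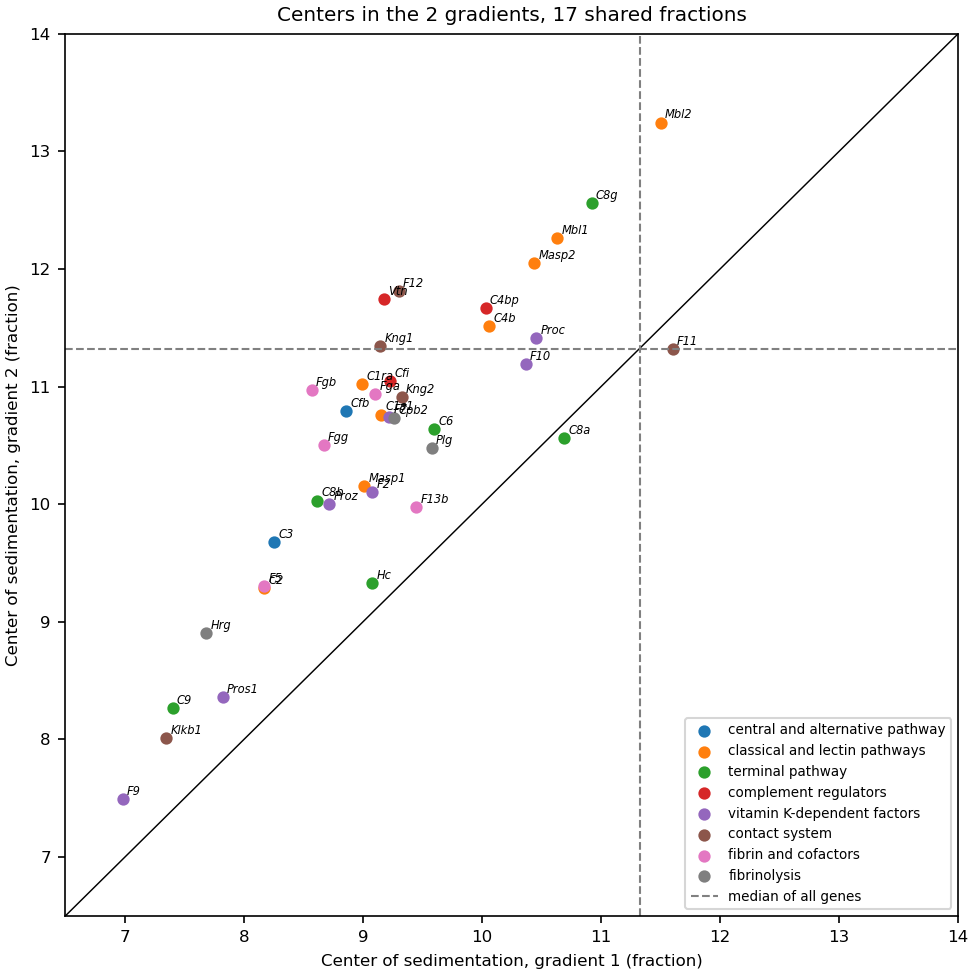
Center of sedimentation (fraction number weighted by TPM over 17 shared fractions) in gradient 1 (x axis) and gradient 2 (y axis) for each of the 39 factors, colored by role. The solid line marks equal values and the dashed lines the medians of all genes, 11.33 and 11.32; 37 factors lie above the solid line, from F9 at 6.98 and 7.49 to Mbl2 at 11.50 and 13.24.

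The median R between pairs of the 39 RNAs was 0.874 in gradient 1 and 0.791 in gradient 2 over 17 fractions, and that between pairs of all genes was 0.0645 and 0.0827. Neighboring fractions are not independent, so these values are descriptions. Each RNA's own profile was repeated between gradients with a median R of 0.922, close to that of all genes (0.905). The expressed genes outside the list with a profile most like the median of the factors, by the lower of their R in the 2 gradients, were Pdia4 (0.983), an ER disulfide isomerase, Serping1 (0.980), the inhibitor of C1 and kallikrein, Ces1b (0.979), a carboxylesterase, Cyp2d22 (0.976), a cytochrome P450, and Serpinf2 (0.975), the plasmin inhibitor.

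Other genes of the same cascades were read from lists that hold them by function. Of 26 further complement genes, 19 could be tested, and from the light to the dense zone 10 were lower and 0 higher, with a median change of −1.17 (13 lower with the block), beside 39.6% of all genes lower (50% with the block). Colec10, a liver collectin of the lectin pathway, fell by 2.76 (adjusted p = 0.00052, limma). C1qa, C1qb and C1qc, the chains of C1q, had changes of −0.09, −0.19 and −0.14 (adjusted p = 0.818, 0.420 and 0.565). Vsig4, which like C1qa was used as a Kupffer cell marker, fell by 1.60 (adjusted p = 0.00156, limma). A role of the cell of origin was not tested. Of 21 further coagulation genes 11 could be tested and 10 were lower (11 with the block), beside the same 39.6% and 50% of all genes, with a median of −1.38, among them the thrombin inhibitors Serpinc1 (−1.47, adjusted p = 0.0214) and Serpind1 (−1.82, adjusted p = 0.0164).

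RNAs for the machinery that modifies and exports the factors were also mostly lower in the dense zone. Ggcx, the carboxylase of the vitamin K-dependent factors, fell by 2.06 (SE 0.34, adjusted p = 0.00335), and Vkorc1, which recycles the vitamin, had a change that did not pass (−0.64, SE 0.23, adjusted p = 0.0548; 0.0274 with the block). Lman1 and Mcfd2, the cargo receptor that carries F5 and F8 out of the ER, fell by 2.09 and 1.01 (adjusted p = 0.00237 and 0.0370), and Furin, which removes propeptides, by 1.61 (adjusted p = 0.00153). In all, 6 of 8 such genes (7 with the block) and 7 of 10 ER chaperones (9 with the block) were lower, beside 39.6% of all genes (50% with the block). Of 9 other plasma protein RNAs 4 were lower (5 with the block), a share near that of all genes, and Apoa2 was higher (1.25, adjusted p = 0.0378). The 14 core proteasome RNAs were all higher in the dense zone, with a median change of 2.70, beside 22.3% of all genes higher (30.5% with the block).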

How the data were processed

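The values deposited by the authors are TPM per gene symbol, 1 table for each gradient, made by pseudo-alignment with kallisto (version not given in the sources used here) to RefSeq transcripts of mm10 after bcl2fastq 2.16.0.10, with genes kept by the authors if 1 or more fractions had a TPM above 1. TPM holds no read counts, so depth is unknown and no count model was used. TPM totals were 998099 to 999202 per library, and 0 value columns lacked a sample. Members and gene lists were chosen with earlier results of these data known. The 39 members were named by function, and all are reported. Zone means of log2(TPM + 1) (pseudocount 1, mean TPM of at least 1 over 24 libraries) were fitted with limma 3.58.1 (trend in eBayes, R 4.3.3), which was tested on simulated data. The gradient, which is 1 mouse, pairs its zones: deviations of the gradients correlated over genes (r = 0.665, 0.540 and 0.798 for light with middle, light with dense and middle with dense), so a block was also fitted. Profiles were compared with those of 11308 genes whose mean reached 1 TPM in each gradient. Members with full values were the most abundant of each role, the extremes, those with an estimate above 0 against the light zone, and Hc. The planned protein length and hydropathy were replaced by codon features from GENCODE M21, in which all 39 members were matched. Alternatives were the pseudocount, filters, scalings, zone borders, the log scale, all 22 fractions, shifted fraction numbers and leaving out each zone of a gradient. Python 3.11.15, NumPy 2.4.6, pandas 2.3.3 and SciPy 1.17.1 were used.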

Additional observations from a re-analysis of the deposited data

How the results depend on the processing

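With the gradient as a block, which pairs the zones of a mouse, the members called lower rose from 21 to 32 (middle against light), from 0 to 2 (dense against middle) and from 2 to 15 (middle against both outer zones), and went from 27 to 35 for dense against light. Leaving out 1 zone of 1 gradient gave 13 to 35 members lower for dense against light, 7 to 30 for middle against light, 0 to 2 for dense against middle and 0 to 18 for middle against both; the lone sample is then assumed to vary like the others. Under every alternative 0 members were called higher. The direction of dense against light stayed negative for 37 members under each alternative with both gradients, the exceptions being Mbl2, which was above 0 but for quantile normalization (−0.085), and C8g, which was above 0 with zones of 2 fractions (0.028). With a zone left out it stayed negative for 35, the others being Mbl2, C8g (−0.50 without the dense zone of gradient 2 to 0.36 without that of gradient 1, and 0.04 without the light zone of gradient 1), Mbl1 (−0.65 to 0.17) and Masp2 (−0.99 to 0.31, both between the same dense zones). Quantile normalization moved the median change of all genes from −0.43 to −0.05 and that of the members from −1.46 to −1.49 for dense against light. On log2 profiles the median center of members relative to all genes in gradient 1 was −0.49 in place of −2.18, and in gradient 2 −0.03 in place of −0.58. Over all 22 fractions of gradient 2 the median pairwise R was 0.715 and the median center relative to all genes −0.20. The centers relative to all genes ranged from −2.18 without gradient 2 to −0.58 without gradient 1, and the pairwise R from 0.791 to 0.874. TPM without depth and n = 2 limit the precision.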

Other observations

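Summed over the 39 RNAs, C3 alone took between 8.85% and 27.2% of their TPM in a library, with the highest share in fraction 5 of gradient 2 and the lowest in fraction 10 of gradient 1. The zone means of the members' share of all TPM were 0.914% ± 0.048 in the light, 0.342% ± 0.074 in the middle and 0.336% ± 0.158 in the dense zone (SD, n = 2), so the gradients were furthest apart in the dense zone (0.224% and 0.448%). Codon shares and lengths come from annotated transcripts of the reference and not from these mice, and isoforms were not separated.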
